A study of Mus musculus with 18 samples.

Results

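Box C/D snoRNAs outside the imprinted clusters were examined in hippocampal small RNA of WT and 5xFAD mice. They were every entry of the deposited table named Snord, except the families Snord64, Snord107, Snord113, Snord114, Snord115 and Snord116, which lie in imprinted regions. The rule gave 79 members of the 146 snoRNA entries named Snord, Snora or Scarna, which were 133 once near-identical copies were counted once, among the 3574 entries of the table. The other snoRNA entries were 39 H/ACA snoRNAs, 9 scaRNAs and 6 imprinted C/D snoRNAs. The level of each member was expressed as its percent of all snoRNA reads of the same mouse.

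The study asked whether silencing RTP801, a stress-response protein encoded by Ddit4, changes small RNAs in the hippocampus of a mouse model of Alzheimer's disease. The 5xFAD mice carry mutant human transgenes of familial Alzheimer's disease under the neuronal Thy-1 promoter, and the WT mice had a B6SJL background. All mice were male and 6 months old at injection, and every mouse, controls included, received into CA1 and dentate gyrus a neuron-targeted rAAV2/8 vector with GFP and either a control hairpin (shCT) or a hairpin against RTP801 (shRTP801). Both hippocampi were dissected out 4 weeks later, and legends of the paper's supplement name the dorsal hippocampus. Cells which the vector had not reached can be part of each sample. The 9 WT mice were 5 with shCT and 4 with shRTP801, and the 9 5xFAD mice were 3 with shCT and 6 with shRTP801, with 1 library each. Ddit4 was not among the entries of the table, so its silencing was not checked here. Of the neuronal markers, no entry was named Snord115, and Snord116 had 0 to 1546 reads per mouse and the Mir124a and Mir9 precursors 0 to 93. The markers listed for microglia and blood, liver and muscle had no entries.

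Box C/D snoRNAs are short nucleolar RNAs that carry the C and D sequence boxes. With fibrillarin, Nop56, Nop58 and Snu13 they form particles in which an antisense element pairs with a target RNA and places a methyl group on a ribose of ribosomal RNA or of a spliceosomal RNA. A few of them take part in cutting and folding the pre-rRNA instead. Most vertebrate C/D snoRNAs are released from introns of host genes, many of which encode ribosomal proteins, translation factors or the snoRNP proteins themselves. Neurons make ribosomes throughout life, and these guides are present in every nucleated cell type.

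The mice differed widely in how much snoRNA their libraries held. Total reads per library, copies counted once, ran from 18126375 to 34488923, whereas snoRNA reads ran from 71 to 1743062. WT shCT mouse 5 had 71 snoRNA reads, 5xFAD shRTP801 mouse 7 had 943 and WT shRTP801 mouse 4 had 6349, while the other 15 mice had 134691 or more. In these 3 thin libraries 26, 52 and 66 members had at least 1 read. Entries with names beginning with tRNA, not split into mature and precursor forms, took 99.9%, 99.7% and 99.0% of all reads. At 71 reads, a member listed at 0 may hold a share of up to 4.23% (the share that 3 reads make up). At 6 of 71 reads, the 8.45% of Snord80 in that mouse had a Wilson 95% interval of 3.93% to 17.2%, which covers counting error only. The 3 thin libraries were kept in the tests over 18 mice, and each result is given also over the 15 other mice (in WT, 4 with shCT and 3 with shRTP801, and in 5xFAD, 3 with shCT and 5 with shRTP801).

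**Figure D1:**
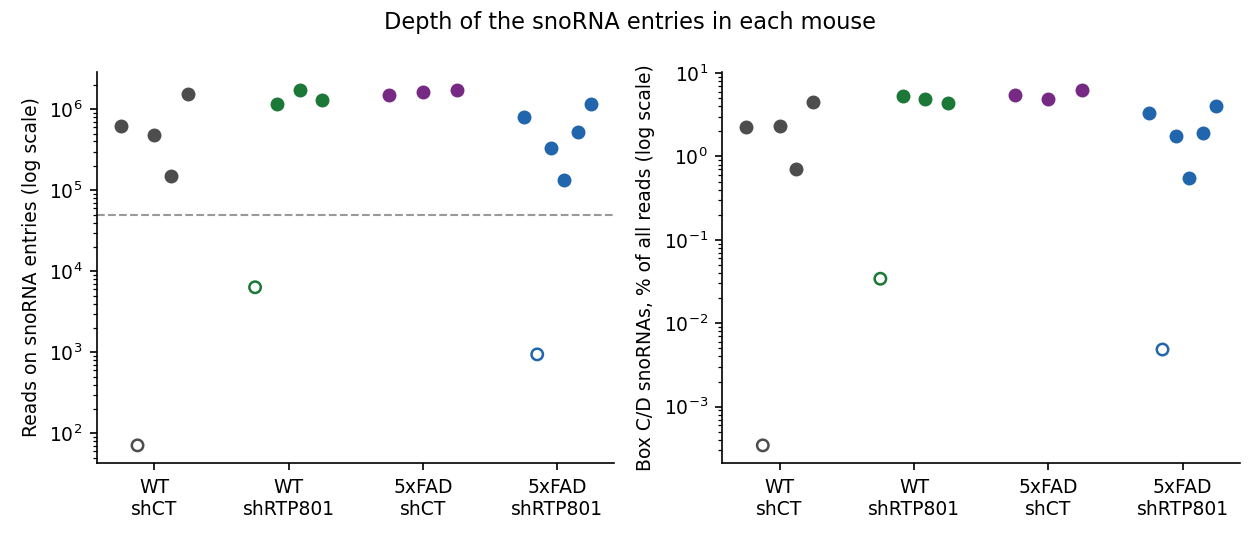
Depth of the 18 libraries by group: snoRNA reads per mouse (left) and the members' percent of all reads of the library (right), both on log axes. Hollow points are the 3 mice with under 50000 snoRNA reads (dashed line), which lie far below the other 15 mice, and the 3 5xFAD shCT mice hold the members' shares of 4.85% to 6.33%.

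C/D snoRNAs outside imprinted clusters made up nearly all snoRNA reads of each mouse. Their summed share was 97.3% ± 0.662 (SD, n = 18), from 95.8% to 98.5%, beside means of 1.01% for H/ACA snoRNAs, 1.0% for scaRNAs and 0.645% for imprinted C/D snoRNAs. H/ACA snoRNAs and scaRNAs are mostly longer than C/D snoRNAs, and the RNA had been cut from a gel between 60 and 100 nt. The part of that window in these shares was not tested. The group means of the summed share were 97.0% and 97.9% in the WT shCT and WT shRTP801 mice, against 97.8% and 97.0% in the 5xFAD shCT and 5xFAD shRTP801 mice. Over the 15 mice they were 97.4% and 98.0% in WT and 97.8% and 97.0% in 5xFAD, in the same order. All 15-mouse WT shRTP801 values (97.64% to 98.23%) lay above all those of 5xFAD shRTP801 (96.44% to 97.55%), and the sums were not tested.

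Set against all reads of the library instead, the members moved over a much wider range. Among the 15 mice the members' percent of all reads was 0.705%, 2.24%, 2.30% and 4.50% in WT shCT, and 4.38%, 4.89% and 5.38% in WT shRTP801. It was 4.85%, 5.42% and 6.33% in 5xFAD shCT, and 0.549%, 1.78%, 1.90%, 3.30% and 4.05% in 5xFAD shRTP801. The 5xFAD shCT mice all lay above the 5xFAD shRTP801 mice, and WT shCT mouse 15 lay within the WT shRTP801 range. The entries with names beginning with tRNA ran the other way, from 32.1% to 86.3% of reads in these 15 mice. The members' share of all reads thus tended to be low where these tRNA entries took a large part of the same total. What this adds to the comparisons below was not tested apart from the values given there. In tissue, moreover, fewer cells that express a snoRNA and less of it per cell cannot be told apart.

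A few members held most of the reads. Over 18 mice, 18 members had a mean of at least 1% of snoRNA reads, 39 lay between 0.1% and 1%, and 22 were below 0.1%. The 15 most abundant made up 77.5% of the members' summed mean. Shares were not divided by the length of the snoRNA, so that their order is an order of reads, not of molecules. Of the 79 members, 71 passed the filter for testing, a mean of at least 0.01% of snoRNA reads, and Snord14a, Snord89, Snord7, Snord17, Snord8, Snord15a, Snord82 and Snord53 did not.

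Snord80, a guide for methylation of 28S rRNA, had the highest mean. Over the 15 mice it took 23.3% ± 7.94 (SD, n = 15) of snoRNA reads, from 6.21% in WT shCT mouse 11 to 35.7% in WT shCT mouse 15. Its recovered read number was even in all 18 libraries, from 6 to 554292 reads. Among the other snoRNA entries only Snora16a, an H/ACA snoRNA, was even in each library with reads, 15 of 15. Whether fragments of these entries were counted more than once was not tested. With the Snord80 reads halved, its mean over 15 mice was 13.4% ± 5.01, next to 13.1% ± 3.24 for Snord73a, and it exceeded Snord73a in 6 of 18 mice, against 14 of 18 as deposited. Its place at the head of the order therefore depends on that count.

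The members after it were Snord73a, from the ribosomal protein gene Rps3a1, with 11.5% ± 2.66 (SD, n = 15), and Snord104 with 10.2% ± 4.57. Snord73a was among the steadier members, with a highest mouse 2.51-fold above the lowest, whereas Snord104 spanned 4.92-fold. Then came Snord37 from the elongation factor gene Eef2 (3.58% ± 1.64), Snord95 from Rack1 (3.41% ± 0.974), Snord52 (3.36% ± 1.16), Snord43 from Rpl3 (3.20% ± 2.01) and Snord50a (3.16% ± 1.18). These neighbours in the order lay within each other's SD. Snord43, an 18S rRNA guide, was the least steady of them, with 0.405% in 5xFAD shRTP801 mouse 12 and 7.79% in WT shCT mouse 3, a 19.2-fold span. It reached 18.6% in WT shRTP801 mouse 4 and 18.3% in 5xFAD shRTP801 mouse 7, both thin libraries. Snord90 from Rc3h2 ranged from 0.851% to 8.76%, while Snord59a from the ATP synthase gene Atp5b ranged only from 0.843% to 1.71%.

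**Figure D2:**
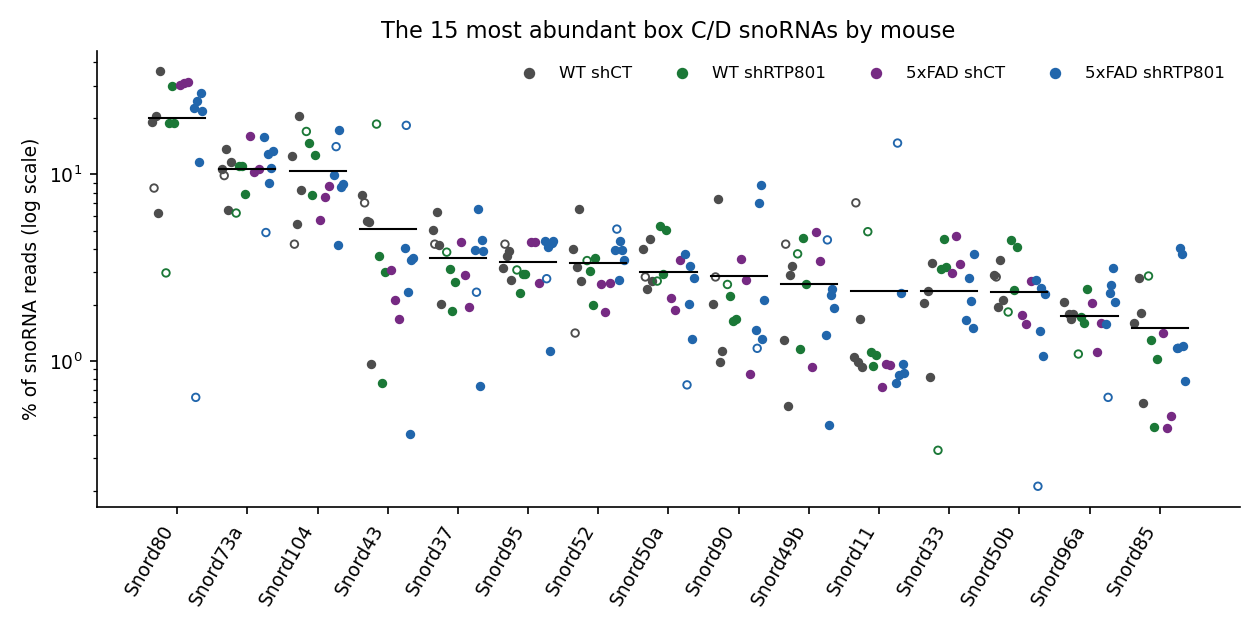
The 15 members with the highest mean share, as percent of all snoRNA reads (log axis) in each of the 18 mice, coloured by group. The line marks the mean over 18 mice, hollow points are the 3 mice with under 50000 snoRNA reads, and values of 0 are not drawn. Snord80 leads in reads as deposited, and Snord43 and Snord90 spread more widely over mice than Snord73a.

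Among the target lists, guides of the large rRNA held the largest share of the reads. The 33 members on the 28S rRNA list took 50.8% ± 6.50 (SD, n = 15) of snoRNA reads, the 25 on the 18S rRNA list 15.1% ± 2.47, and the 5.8S rRNA guides Snord71 and Snord96a 2.19% ± 0.493. Over all 18 mice the 28S share was 47.7% ± 9.84 and the 18S share 18.3% ± 8.71. With the Snord80 reads halved, the 28S guides took 44.5% ± 5.15 over the 15 mice and 42.2% ± 7.60 over 18. A share above 50% therefore rests on the Snord80 count, on the mice included and on the list. Several abundant members are on no target list, among them Snord73a (11.5% over the 15 mice), Snord104 (10.2%), Snord90 and Snord85. The snoRNAs on the pre-rRNA processing list took 1.21% ± 0.496 together. They were Snord118 (U8), Snord13 (U13), Snord22 (U22) and the U14 copies Snord14a, Snord14c, Snord14d and Snord14e. Snord118 had the highest mean of these, 0.585% ± 0.302, ahead of Snord14c with 0.235% ± 0.192, Snord14d with 0.226% ± 0.180 and Snord13 with 0.134% ± 0.118. U8, U13 and U22 are longer than the gel window, so their shares need not follow their level in the tissue. The 3 guides of the spliceosomal U6 snRNA, Snord67, Snord7 and Snord8, took 0.0418% ± 0.0128, nearly all of it Snord67 with 0.0351% ± 0.0124. No member was on the tRNA guide list.

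By host, the annotation gave a gene whose bounds contain the snoRNA for 71 of the 74 members it listed. The strand was not compared, and the smallest such gene was taken. The 24 members in ribosomal protein genes or Rack1 took 29.8% ± 3.41 (SD, n = 15) of snoRNA reads, and the 38 in other genes 35.2% ± 7.93. The 9 in noncoding host genes named Snhg, Gas5 or Zfas1, whose exons encode no protein, took 2.05% ± 0.489. Hosts were sorted by name only, so this need not be the share of all noncoding hosts. Snord104 in Gm36220 and Snord52 in 1110038B12Rik, for example, were counted among the other genes. Whether those genes encode protein was not checked. The 8 members without a listed host, Snord80, Snord50a, Snord50b, Snord60, Snord118, Snord13, Snord78 and Snord89, took 30.4% ± 6.83, most of it Snord80. Of these, Snord80, Snord50a, Snord50b, Snord60 and Snord78 were not found in the annotation by name, so their hosts are unknown here. The shares given for the host classes above, the noncoding one included, leave these members out. As Snord80 alone held 23.3%, any of those shares may be too low.

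Members inside 1 host gene and on its strand share a transcript, and 15 hosts held 36 members. Of the 59 members with a mean of at least 0.05% over the 15 mice, 15 pairs shared a host. The SD over mice of their log2 ratio had a median of 0.624, against 1.02 over the 1696 other pairs, and 11 of the 15 lay below 1.02. The other pairs include members without a listed host, so some of them may share a host. Their lowest SD was 0.0763. A low SD means that the pair kept a like ratio from mouse to mouse. The lowest within a host was 0.109, for Snord14c and Snord14d of Hspa8. These are close copies whose absolute read differences, summed over mice, came to 5.39% of the Snord14c reads, so that counting can share reads between them. Snord1c and Snord1b of Snhg16 followed with 0.163 and Snord49b and Snord49a of 2410006H16Rik with 0.369. The highest were also in Snhg16, 1.50 for Snord1b with Snord1a and 1.47 for Snord1c with Snord1a, so sharing a host did not always go with a steady ratio. The pairs share members and mice, and the values are a description.

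**Figure D3:**
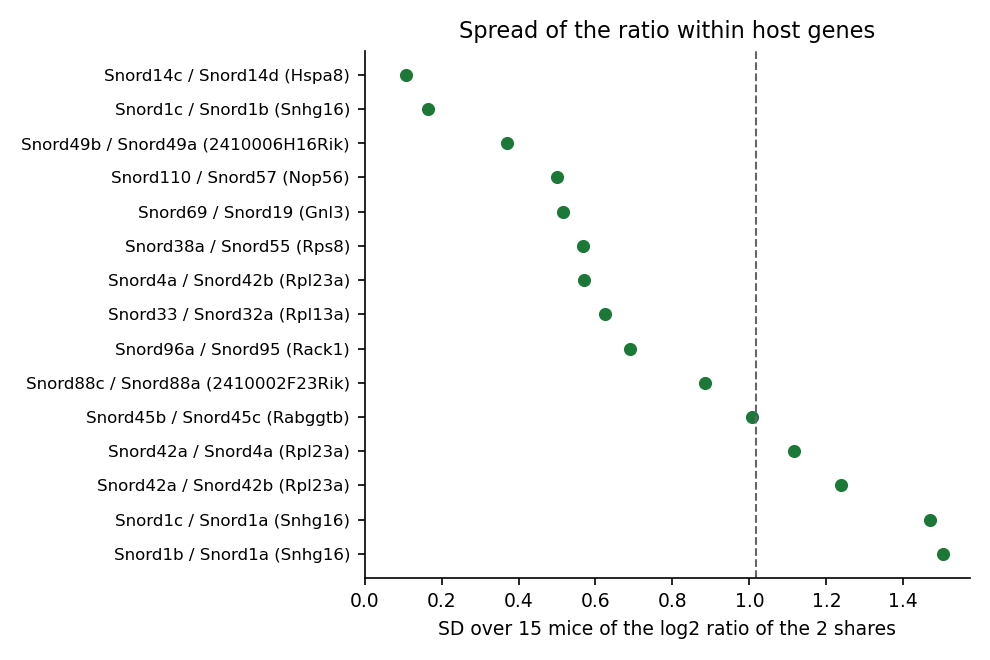
SD over 15 mice of the log2 ratio of 2 members for the 15 pairs within a host gene, each a point named by its pair. The dashed line is the median of the 1696 other pairs, 1.02, which include members without a listed host. Of the 15 pairs, 11 lie below it.

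Genotype and treatment were compared with limma over all snoRNA entries that passed the filter, on log2(percent of snoRNA reads + 0.01%). With all 18 mice, no member passed an adjusted p of 0.05 in any comparison. Between 5xFAD shCT and WT shCT, 0 of 71 members were called (0% of the 97 entries tested), and 6 had an unadjusted p below 0.05, against 6.19% of all entries. WT shRTP801 against WT shCT also gave 0 called (0%) and 6 at the unadjusted threshold (6.19%). 5xFAD shRTP801 gave 0 called and 0 at the unadjusted threshold (0% and 0%) against both 5xFAD shCT and WT shRTP801. The interaction, the treatment difference in 5xFAD minus that in WT, gave 0 called (0%) and 8 at the unadjusted threshold (9.28%). The smallest adjusted p was 0.117, for Snord14c and Snord14d in WT shRTP801 against WT shCT. On the recovered reads, edgeR called Snord35a alone in this comparison (log2 3.18, adjusted p = 0.00855), in 5xFAD shRTP801 against WT shRTP801 (-2.68, adjusted p = 0.0181) and in the interaction (-5.03, adjusted p = 9.1e-04), each 1.03% of the entries tested. DESeq2 called it alone in the interaction (adjusted p = 0.0319; 1.03% of entries), and neither tool called an entry elsewhere (0%). The 3 thin libraries, whose low shares rest on a few reads, enter these fits with the same weight as the others.

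Over the 15 other mice, the median log2 difference of the members was -0.00 in 5xFAD shCT against WT shCT and 0.00 in 5xFAD shRTP801 against 5xFAD shCT, beside 0.01 and 0.03 over all entries tested. It was 0.26 in WT shRTP801 against WT shCT (all entries 0.15), -0.19 in 5xFAD shRTP801 against WT shRTP801 (-0.07) and -0.24 in the interaction (-0.13). Over 18 mice the medians were 0.34 (all entries 0.32), -0.01 (0.06), 0.60 (0.44), -0.24 (-0.01) and -0.74 (-0.33) in the same order. The members are the larger part of all entries. No member was called in 5xFAD shCT against WT shCT (0% of the 92 entries tested), with 6 of 70 members at the unadjusted threshold (6.52% of entries). No member was called in 5xFAD shRTP801 against 5xFAD shCT (0%), with 8 at the unadjusted threshold (9.78%), nor in 5xFAD shRTP801 against WT shRTP801 (0%), with 16 (22.8%). Without the 3 mice, DESeq2 called Snord35a in 5xFAD shCT against WT shCT (adjusted p = 0.0245; 1.03% of entries), where edgeR called none (0%). In 5xFAD shRTP801 against WT shRTP801 edgeR called Snord35a (adjusted p = 0.0426; 1.03%) and DESeq2 Snord35a and Snord47 (3.09%), and neither called an entry in 5xFAD shRTP801 against 5xFAD shCT (0%). In WT shRTP801 against WT shCT, 3 members rose (3.26% of entries called), and 9 were at the unadjusted threshold (12%), all higher. On the reads of these mice edgeR called Snord35a there (1.03%) and DESeq2 Snord35a, Snord14c and Snord14d (3.09%). In the interaction 1 member was called (1.09%), with 18 at the unadjusted threshold (26.1%). The share of members at each threshold lay near that of all entries.

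**Figure D4:**
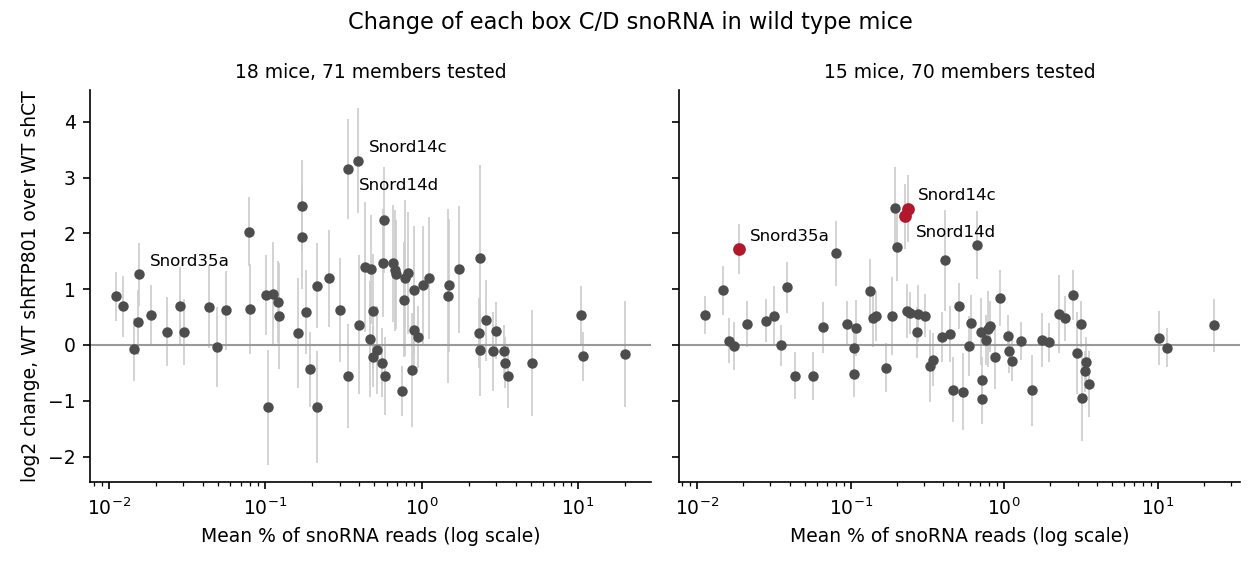
Difference of WT shRTP801 over WT shCT of each member tested, on the log2(percent of snoRNA reads + 0.01%) scale, against its mean share (log axis), for 18 mice with 71 members (left) and 15 mice with 70 (right). Points are limma estimates, bars their SE, and red points have an adjusted p under 0.05: none among 18 mice, and Snord14c, Snord14d and Snord35a among 15, at 2.44, 2.31 and 1.72.

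The members that rose were in 2 host genes. Snord14c and Snord14d are U14 snoRNAs, which base-pair with 18S rRNA both to guide a methylation and to allow cleavage of the precursor, and lie with Snord14e in introns of Hspa8, the gene of the constitutive heat shock protein Hsc70. Snord35a lies in Rpl13a, the gene of a large-subunit ribosomal protein, with Snord32a, Snord33 and Snord34. Because members of a host share its promoter, the bases upstream of the start are shown for Rpl13a and, for contrast, for Gnl3, the nucleostemin gene, whose Snord19 and Snord69 lay on the other side of 0 in the same comparison over the 15 mice (-0.96 and -0.62). Over 18 mice they had 0.81 and -0.82. Snord19 and Snord69 were picked after their values were seen. The stretches are the 250 bases before the annotated start in RefSeq, on the minus strand of GRCm38.p6, and capitals mark each match to CCAAT on either strand (the letters ATTGG on the strand shown).

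Rpl13a, chr7:45128746-45128995: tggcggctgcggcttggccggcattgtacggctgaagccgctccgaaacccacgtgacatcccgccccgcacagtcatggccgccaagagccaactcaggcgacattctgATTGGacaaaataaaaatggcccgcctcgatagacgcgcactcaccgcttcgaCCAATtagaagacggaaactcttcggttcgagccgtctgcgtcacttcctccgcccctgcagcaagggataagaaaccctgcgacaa
Gnl3, chr14:31019132-31019381: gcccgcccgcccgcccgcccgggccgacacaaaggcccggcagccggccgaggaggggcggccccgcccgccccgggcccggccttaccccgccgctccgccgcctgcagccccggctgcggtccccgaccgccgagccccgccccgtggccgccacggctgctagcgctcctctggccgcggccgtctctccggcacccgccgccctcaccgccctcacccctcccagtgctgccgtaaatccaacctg

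The Rpl13a stretch held 2 matches to CCAAT, and the Gnl3 stretch held 0. Among the 250 bases upstream of 32851 promoters, 33.8% held CCAAT on either strand. Neither stretch held TATAAA, found in 12.4%, or the heat shock half-site pair GAANNTTC, found in 6.69%. A match is a description of the letters only.

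In Hspa8, Snord14c was measured at 0.0344%, 0.0936%, 0.110% and 0.151% in the WT shCT mice and at 0.425%, 0.508% and 0.640% in the WT shRTP801 mice. In 5xFAD shCT it was at 0.0922%, 0.171% and 0.380%, and in 5xFAD shRTP801 at 0.0575%, 0.0941%, 0.108%, 0.222% and 0.444%. All WT shRTP801 mice lay above all WT shCT mice, while the 5xFAD groups overlapped each other. Of the thin libraries, WT shRTP801 mouse 4 had 0.914%, 5xFAD shRTP801 mouse 7 had 2.65% from 25 reads, and WT shCT mouse 5 had 0 of 71 reads. Over 15 mice, Snord14c rose by 2.44 ± 0.595 (SE) on the log2 scale in WT shRTP801 against WT shCT, with a 95% interval of 1.19 to 3.69, a 5.43-fold difference (limma, adjusted p = 0.0349). The exact two-sided permutation test of the means, unadjusted and on the same mice, gave p = 0.0286, the smallest that 4 against 3 mice allow. Snord14d followed its near copy with 2.31 ± 0.579 (adjusted p = 0.0349), and the pair counts as hardly more than 1 observation. Snord14e, the least abundant copy, had 0.98 (adjusted p = 0.328). In the interaction Snord14c had -2.77 ± 0.824 (adjusted p = 0.0643), short of the threshold.

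Snord14a, another U14 copy in the ribosomal protein gene Rps13, did not pass the filter and had from 0 to 86 reads per mouse. Its mean share was 0.00330% in WT shRTP801 and 0.00113% in WT shCT over the 15 mice, and the groups did not overlap (exact permutation test, p = 0.0286, with 3.26% of entries called in that comparison). The other processing snoRNAs gave no such pattern. In WT, Snord118 averaged 0.476% ± 0.285 with shCT (n = 4) and 0.415% ± 0.125 with shRTP801 (n = 3), and in 5xFAD 0.569% ± 0.292 with shCT (n = 3) and 0.785% ± 0.353 with shRTP801 (n = 5). The groups overlapped, and its WT difference was -0.02 ± 0.536 (SE), with an interval of -1.15 to 1.10. Of the 6 processing snoRNAs tested over 15 mice, 2 were called in WT shRTP801 against WT shCT, the near copies Snord14c and Snord14d. The median of the 6 was 0.97 (all entries 0.15). As 3 of the 6 are the U14 copies of Hspa8, with a median of 2.31, it does not describe a shift of the whole list.

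In Rpl13a, Snord35a, a guide of 28S rRNA, was measured at 0.00199%, 0.00240%, 0.00625% and 0.00837% in WT shCT and at 0.0176%, 0.0239% and 0.107% in WT shRTP801. In 5xFAD shCT it was at 0.0137%, 0.0282% and 0.0336%, and in 5xFAD shRTP801 at 0.00223%, 0.00558%, 0.00752%, 0.00811% and 0.0145%. WT shCT lay below both WT shRTP801 and 5xFAD shCT without overlap, and 5xFAD shRTP801 lay below WT shRTP801 and overlapped 5xFAD shCT. These are low counts: WT shCT mouse 11 had 3 reads of 150653 (Wilson 95% interval 0.000677% to 0.00586%), WT shRTP801 mouse 17 had 1842 reads, and the 3 thin libraries had 0. Over 15 mice Snord35a rose by 1.72 ± 0.447 (SE) on the log2 scale in WT shRTP801 against WT shCT (interval 0.78 to 2.66, adjusted p = 0.0349; exact permutation test, p = 0.0286, the smallest possible). Its interaction was -2.71 ± 0.618 (interval -4.01 to -1.41, adjusted p = 0.0320), a treatment difference in 5xFAD below that in WT. Over 18 mice the values were 1.26 (adjusted p = 0.613) and -2.38 (adjusted p = 0.303). In 5xFAD shCT against WT shCT it had 1.23 over 15 mice (limma, adjusted p = 0.417), with groups that did not overlap (exact permutation test, p = 0.0286; 0% of entries were called there). As many of its shares lie below the 0.01% that was added before the log, the log2 differences understate its change.

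The other members of Rpl13a lay on the same side in WT shRTP801 against WT shCT and in the interaction, without passing the test. Snord32a was at 0.109%, 0.156%, 0.463% and 0.719% in WT shCT and at 0.798%, 0.841% and 1.41% in WT shRTP801, with groups apart and a difference of 1.79 (adjusted p = 0.115). Snord33, an 18S rRNA guide and the most abundant of the host, averaged 2.14% ± 1.04 (n = 4) and 3.61% ± 0.793 (n = 3), a difference of 0.89 (adjusted p = 0.436). Snord34 had 0.37. The 4 members thus differed in size in 1 comparison although they come from 1 host, and their median was 1.31 (all entries 0.15). In the interaction they had a median of -2.14, with Snord32a at -2.72 (adjusted p = 0.0661).

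Other members lay the same way. Snord35b was at 0.00929%, 0.0221%, 0.0959% and 0.213% in WT shCT and at 0.232%, 0.336% and 0.447% in WT shRTP801, a difference of 2.45 (limma, adjusted p = 0.0828). Snord111, a 28S rRNA guide from the splicing factor gene Sf3b3, averaged 0.110% ± 0.0762 and 0.348% ± 0.168, a difference of 1.75 (adjusted p = 0.115), and 5xFAD shRTP801 lay below WT shRTP801 without overlap (exact permutation test, p = 0.0179; 0% of entries were called there). Snord88a, from 2410002F23Rik, had 1.64 (adjusted p = 0.115). In the interaction Snord35b had -3.38 and Snord111 -3.14 (adjusted p = 0.0643 for both). Each of these values missed the threshold in limma over 15 mice. DESeq2 on the reads of the same mice called 7 members in the interaction (8.25% of entries). Of these, Snord35a (adjusted p = 1.556e-06), Snord111 (0.0201), Snord14c (0.0226) and Snord14d (0.0270) were below 0, and Snord19 (0.0226), Snord23 (0.0435) and Snord93 (0.0226) above. edgeR over these mice called only Snord35a there (adjusted p = 0.00320; 1.03% of entries). Both tools were run on the entries that passed the filter over 18 mice. Snord23 had a mean of 0.0154% over 18 mice and 0.00827% over the 15, below the 0.01% filter. Its DESeq2 call therefore rests on that choice of entries.

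The calls over 15 mice did not hold in each subset of them. Leaving out 1 mouse at a time, the difference of Snord14c in WT shRTP801 against WT shCT stayed between 2.06 and 2.69, with adjusted p from 0.0110 to 0.251, and passed in 8 of 15 fits. That of Snord35a stayed between 1.07 and 2.12 (adjusted p from 0.0279 to 0.326) and passed in 9 of 15, and its interaction stayed between -3.11 and -2.06 (adjusted p from 0.0125 to 0.137) and passed in 7 of 15. The sizes held in direction, and the calls depended on single mice of every group.

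**Figure D5:**
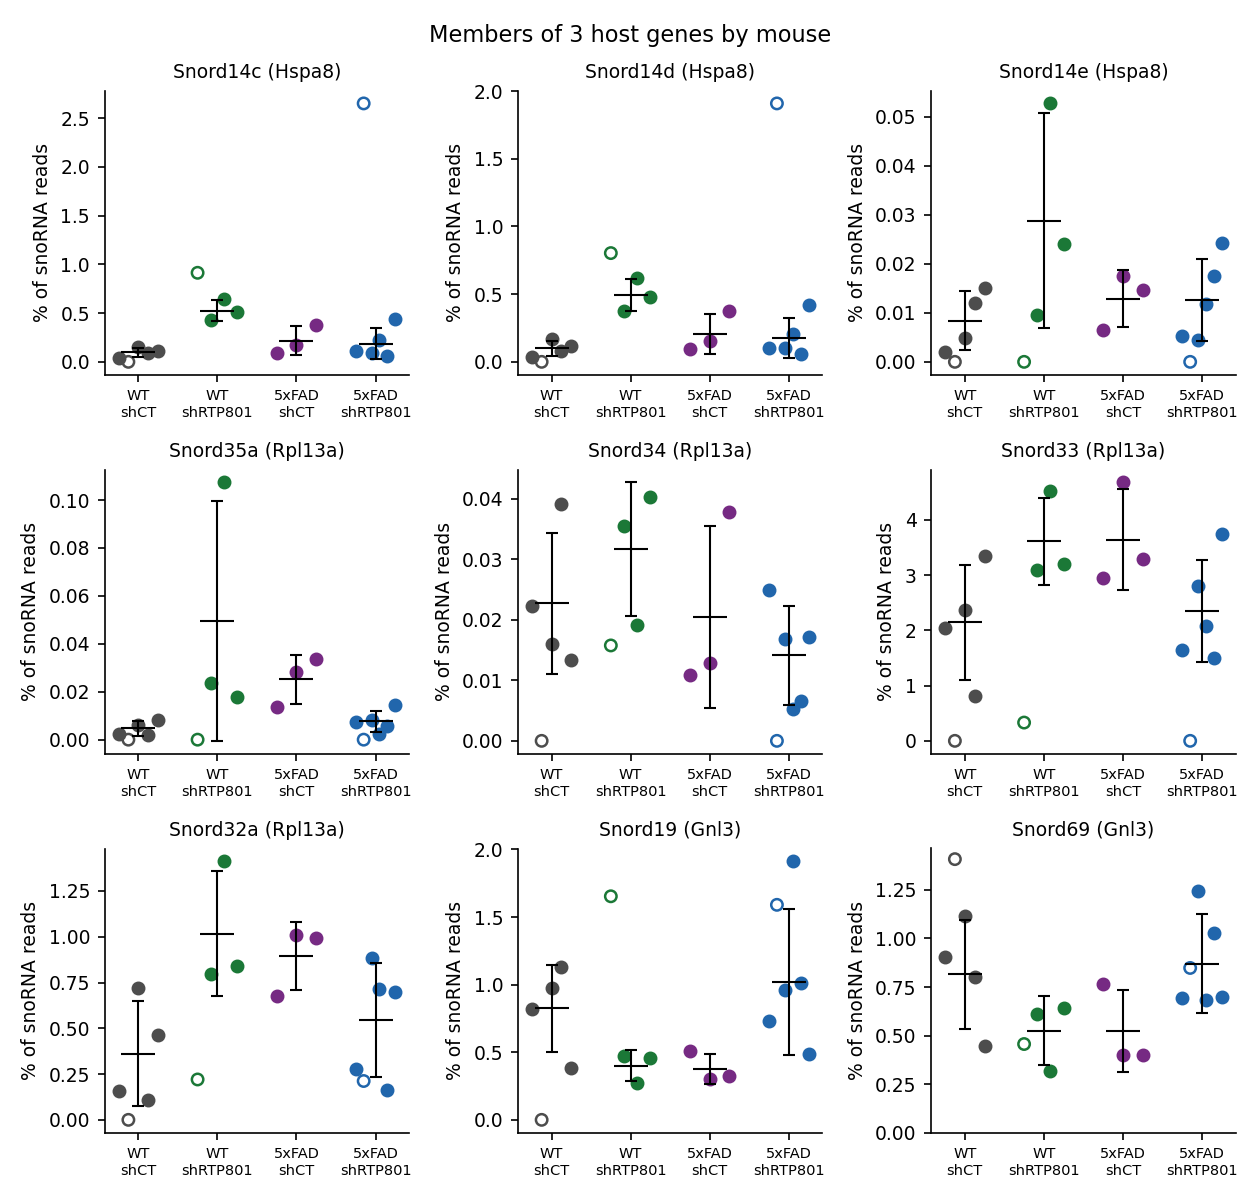
Members of Hspa8, Rpl13a and Gnl3 as percent of all snoRNA reads in each mouse by group, each panel on its own linear axis. Bars are the mean ± SD over the 15 mice, and hollow points the 3 mice with under 50000 snoRNA reads. Snord14c and Snord14d lie higher in WT shRTP801 than in WT shCT without overlap, whereas Snord19 and Snord69 overlap between these groups.

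In Gnl3, Snord19, an 18S rRNA guide, was at 0.383%, 0.819%, 0.975% and 1.13% in WT shCT, and at 0.271%, 0.461% and 0.472% in WT shRTP801. It was at 0.304%, 0.321% and 0.507% in 5xFAD shCT, and at 0.487%, 0.732%, 0.962%, 1.01% and 1.91% in 5xFAD shRTP801. The groups overlapped in each of these pairs, with an interaction of 2.26 ± 0.635 (SE, adjusted p = 0.0643). Snord69, a 28S rRNA guide, had 1.37 ± 0.563 (adjusted p = 0.144). Over 18 mice the interactions were 0.62 and 1.57. Scaled to the whole library, the median of the members shifted. As percent of all reads over the 15 mice, the members' median was 1.28 in WT shRTP801 against WT shCT and -2.59 in the interaction, and on the deposited values 1.59 and -3.34. The interactions of Snord19 and Snord69 as percent of all reads, -0.45 and -1.29, were below 0 but above that median. With such a shift, the sign of 1 member on these scales does not bear on its own change.

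Among the abundant members, the 5xFAD groups were set apart in reads of Snord80 and Snord52. Snord80 was at 30.3%, 30.9% and 31.3% in 5xFAD shCT and at 11.6%, 21.8%, 22.6%, 24.7% and 27.4% in 5xFAD shRTP801, all lower (exact permutation test, p = 0.0357; over all 9 mice p = 0.0595). Snord52, a 28S rRNA guide, was at 1.83%, 2.57% and 2.60% in 5xFAD shCT and at 2.71%, 3.47%, 3.95%, 3.95% and 4.40% in 5xFAD shRTP801, all higher (exact permutation test, p = 0.0357). Neither passed limma (log2 -0.57 ± 0.454, adjusted p = 0.827, and 0.66 ± 0.352, adjusted p = 0.502), and no entry was called in that comparison (0%). This comparison shares its mice with the interaction. Snord23, from the ribosome biogenesis gene Nop53, was at 0.00241%, 0.00434% and 0.00552% in 5xFAD shCT and from 0.00859% to 0.0217% in the 5 5xFAD shRTP801 mice, in counts of 16 to 113 reads per mouse (exact permutation test, p = 0.0357). Its limma test covers only the 18 mice, because it did not pass the filter over the 15. The difference was 1.06 (limma, adjusted p = 0.956), and it includes 5xFAD shRTP801 mouse 7, with 0.106% from 1 read. On the deposited values over 18 mice it had -0.82, where the members' median was -2.92.

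The calls were also set beside the members' share of all reads, which was high in WT shRTP801 and 5xFAD shCT. With the log2 share of snoRNA in all reads as a covariate over the 15 mice, no member was called in any comparison (0% of entries in the interaction). Snord14c kept 2.33 in WT shRTP801 against WT shCT (adjusted p = 0.299) and Snord35a 1.38 (adjusted p = 0.338), and the interaction of Snord35a was -1.97 (adjusted p = 0.633). Both differences stayed above 0 and their adjusted p rose past the threshold. Measured as percent of all reads among 781 entries of the whole table, 16 of 63 members fell in the interaction (4.99% of entries called, the members' median -2.59 against -0.25 for all), and 0 members were called in WT shRTP801 against WT shCT. The 16 included Snord14c, Snord14d, Snord32a, Snord33, Snord35b, Snord111 and Snord88a. On that scale a snoRNA moves with the content of snoRNA in the library as well as with its own level.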

How the data were processed

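Hydro-tRNA-seq libraries of 18 mice were analysed, in 4 groups taken from the sample titles. The authors cut small RNA of 60 to 100 nt from a gel, hydrolysed it and sequenced it, and counted reads per tRNA and small RNA gene with tRAX, on mm39 per the submitters' processing notes. The deposited values are a normalized signal, read counts divided by 1 size factor per library. The aligner and tool versions were not given in the sources used here. Every value was a whole multiple of its library's smallest non-zero value (100% of values, tolerance 0.01), and reads were recovered by division. Near-identical copies, whose absolute read differences, summed over mice, came to at most 5%, were counted once, which dropped 13 snoRNA entries. Host genes, promoters and symbols came from RefSeq on GRCm38.p6, used for names and neighbours, with 74 of 79 members matched. Mature snoRNA sequences and the Hspa8 promoter were not used here.

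Shares of snoRNA reads were tested with limma 3.58.1 (R 4.3.3) on log2(percent + 0.01%), for entries with a mean of at least 0.01%, with all groups in 1 fit and Benjamini-Hochberg adjustment over all snoRNA entries tested (threshold 0.05). For single members, the difference of the group means was set against all exact permutations of the mice (two-sided). These p-values were not adjusted for the number of tests. Some of the members were chosen by their limma p in the same mice, so for them the permutation test is not independent support. The script was tested on simulated data. Alternatives fitted the recovered reads with edgeR 4.0.16 or DESeq2 1.42.0, or used other pseudocounts, filters and scalings, array weights, and each mouse left out. Those over 15 mice other than the plain fit were chosen after seeing the data. The members and lists (rRNA targets, processing, U6 and tRNA guides, hosts) were chosen with earlier results of these data known. Members named were the 15 most abundant, the called ones, the 3 with the smallest p per comparison and those of the processing, U6 and tRNA lists, and others are said to be picked later or described through their host. The labels name no batch, and the p-values measure the spread between mice. Snord72, picked after its values were seen, differed by mouse number across the groups. Among the 15 mice it lay at 0.0536% to 0.117% in mice 1 to 12 and at 0.161% to 0.434% in mice 14 to 21. The later numbers were spread unevenly over the groups. They were WT shCT mouse 15, WT shRTP801 mice 17 and 21, 5xFAD shCT mice 16 and 18, and 5xFAD shRTP801 mice 14 and 19. The earlier ones were WT shCT mice 3, 6 and 11, WT shRTP801 mouse 10, 5xFAD shCT mouse 1, and 5xFAD shRTP801 mice 2, 8 and 12. Whether mouse number enters the comparisons, those with calls included, was not tested. Python 3.11.15, numpy 2.4.6, pandas 2.3.3, scipy 1.17.1 and matplotlib 3.10.9 were used.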

Additional observations from a re-analysis of the deposited data

Results flagged for a closer look

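Single mice stood far from the rest of their group for 16 of the 93 combinations of a named member and a group examined, a gap that chance alone gives in about 1 of 20 groups. Of these, 13 were in the 3 thin libraries. Snord43 was at 18.6% of snoRNA reads in WT shRTP801 mouse 4 and at 18.3% in 5xFAD shRTP801 mouse 7. Snord11, an 18S rRNA guide, was at 7.04% in WT shCT mouse 5 (5 of 71 reads), 4.93% in WT shRTP801 mouse 4 and 14.7% in 5xFAD shRTP801 mouse 7, above the other mice of each group. In 5xFAD shRTP801 mouse 7, Snord14c was at 2.65%, Snord14d at 1.91%, Snord22 at 0.212%, Snord23 at 0.106% and Snord14a at 0.106%, the latter 2 from 1 read each. Snord22 was at 0.063% in WT shRTP801 mouse 4, and Snord96a and Snord14a were at 0 in WT shCT mouse 5. The other 3 were in well-covered libraries: Snord90 at 7.38% in WT shCT mouse 6, Snord13 at 0.516% in WT shRTP801 mouse 17, and Snord8 at 0.00664% in WT shCT mouse 11, from 10 reads.

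The treatment difference of Snord35a differed between genotypes over 15 mice, with an interaction of -2.71 (limma, adjusted p = 0.0320).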

How the results depend on the processing

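The number of members called moved with the mice included, the tool and the scaling. In WT shRTP801 against WT shCT it was 0 over 18 mice (0% of entries), 1 with edgeR (1.03%) and 7 with array weights (9.28%). Without the 3 mice it was 3 (3.26%). On these 15 mice it was 1 with edgeR (1.03%), 3 with DESeq2 (3.09%), 4 on the deposited values (5.43%) and 3 without Snord80 in the total (3.03%). In the interaction it was 0 over 18 mice (0%), 1 with edgeR (1.03%), 1 with DESeq2 (1.03%) and 7 with array weights (9.28%). Without the 3 mice it was 1 (1.09%). On these 15 mice it was 1 with edgeR (1.03%), 7 with DESeq2 (8.25%), 16 as percent of all reads (4.99%), 40 on the deposited values (50%) and 1 without Snord80 (1.01%). In 5xFAD shRTP801 against WT shRTP801 it was 1 with edgeR over 18 mice (1.03%). Without the 3 mice it was 1 with edgeR (1.03%), 2 with DESeq2 (3.09%) and 15 on the deposited values (19.6%). In 5xFAD shCT against WT shCT it was 1 with DESeq2 without the 3 mice (1.03%). The cause was not tested. Leaving out each of 18 mice gave 0 to 4 in WT shRTP801 against WT shCT (4 without WT shCT mouse 6, 2 without 5xFAD shRTP801 mouse 7) and 0 in the other comparisons. Leaving out each of the 15 gave 0 to 8 in WT shRTP801 against WT shCT, 0 to 9 in the interaction and 0 to 2 in 5xFAD shRTP801 against WT shRTP801 (2 without 5xFAD shRTP801 mouse 19). For the fits that left out 1 mouse, the share of all entries called is not given. Their counts therefore do not set the members apart from the other entries. No call was left in WT shRTP801 against WT shCT without 5xFAD shRTP801 mouse 2, WT shCT mice 3 or 11, WT shRTP801 mice 10 or 17, or 5xFAD shCT mouse 16, nor in the interaction without 5xFAD shRTP801 mice 2, 12 or 14, WT shCT mice 3 or 11, 5xFAD shCT mice 16 or 18, or WT shRTP801 mouse 17. As percent of all reads, the mean summed share was 1.95% and 3.67% in WT mice with shCT and shRTP801, and 5.53% and 1.93% in 5xFAD mice. Snord23 in 5xFAD shRTP801 against 5xFAD shCT turned to -0.82 on the deposited values over 18 mice, where the members' median was -2.92. With edgeR, the difference of Snord35a in WT shRTP801 against WT shCT was 3.18. No paired analysis was possible because the groups share no replicate numbers. Counts under 50000 snoRNA reads limit what the 3 thin libraries can show.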
